A study of Mus musculus with 10 samples.

Results

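The genes described here take part in the transport of lipid between cells or in its regulation: Apoe, Clu, Pltp, Lpl, Abca1, Abcg1, Ch25h, Nr1h3 and Nr1h2. RNA of the whole hippocampus was measured on arrays in adult females of the SJL/J strain, aged 8 to 10 weeks when obtained and killed 2 days after an axonal lesion. All 10 mice carried the lesion. The 5 AxL mice had the lesion alone, and the 5 TPlp+AxL mice had first received an adoptive transfer of T cells specific for proteolipid protein, a main protein of myelin. Each array is 1 mouse, with no pooling stated. The labels name no unlesioned mice and no mice that received other T cells, so the comparison is between lesioned animals with and without this transfer.

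The members are all probe sets whose only platform gene symbol is 1 of the 9 genes. The rule found 16 probe sets of 8 genes among 45037 probe sets of 18193 genes, with no probe set for Nr1h2. The 9 genes were selected on measured values of the same comparison, since the declines of Apoe and Pltp were known when the group was drawn up. The changes of the members between the groups are therefore given as a description, with no p, and support nothing.

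In the brain most cholesterol is made locally, and astrocytes and microglia load it onto particles that carry apolipoprotein E (Apoe) or clusterin (Clu, also called apolipoprotein J). The pumps Abca1 and Abcg1 move lipid out of cells onto these particles, the phospholipid transfer protein Pltp remodels them, and lipoprotein lipase (Lpl) releases fatty acids from them. Liver X receptors (Nr1h3 and Nr1h2) are nuclear receptors that sense oxysterols and switch on Apoe, Pltp, Abca1, Abcg1 and Lpl. Ch25h, an enzyme that interferons and microbial products induce in macrophages, makes such an oxysterol. Pltp is also strongly expressed in brain endothelium and choroid plexus.

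Pltp was the member with the largest difference, lower in TPlp+AxL by both of its probe sets. Apoe was lower by a smaller amount, and Ch25h had the largest positive difference. The probe sets of Clu, Lpl, Abca1, Abcg1 and Nr1h3 differed by less, and in several of their probe sets the sign depended on normalization. A probe set is written as called where limma gave a Benjamini-Hochberg adjusted p under 0.05 over all 45037 probe sets. Of the 16 member probe sets 2 were called, 1 of Pltp and the Apoe probe set, both lower. Over all probe sets 0.835% were called in either direction and 0.189% were called lower. In the same 2 member probe sets the groups did not overlap, with TPlp+AxL below AxL, which held for 1.64% of all probe sets. Nothing is read from these counts, because the members were chosen on this comparison. The median log2 change (TPlp+AxL minus AxL) was -0.10 over the 16 member probe sets and -0.0034 over all probe sets.

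The level of a probe set went along with its change. Probe sets near the level of Apoe had a median change of -0.15, while those near the dimmer Pltp probe set had -0.0043, where near means a mean within 0.5 log2 units on either side. Each member's change is therefore given beside the median of the probe sets of like level, and beside its change after quantile normalization was repeated on the deposited values. The level medians are those of the deposited values, and none was computed after normalization. Levels of different probe sets are not compared, since a probe set's brightness depends on its probes as well as on the amount of RNA.

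**Figure D1:**
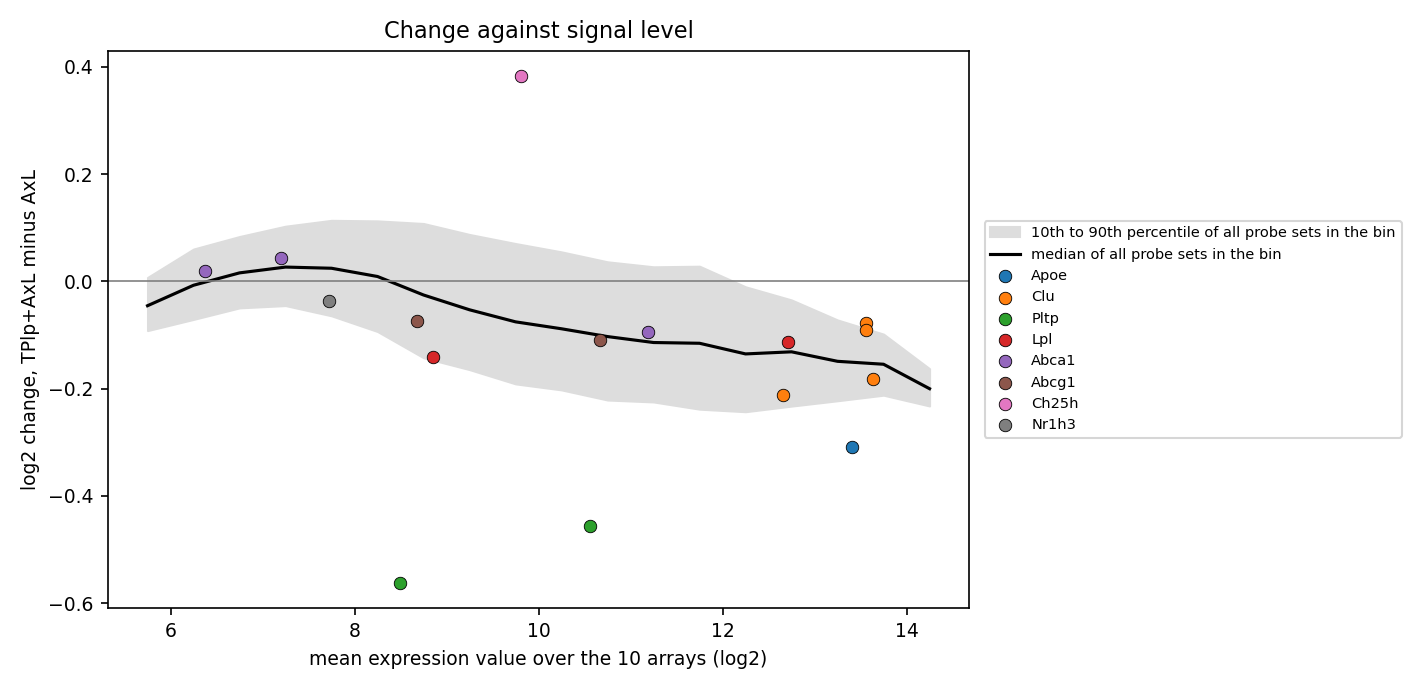
Log2 change (TPlp+AxL minus AxL, y axis) of each member probe set against its mean log2 value over the 10 arrays (x axis). The line is the median and the band the 10th to 90th percentile of all probe sets in bins of 0.5, and both Pltp probe sets and Apoe lie below the band, Ch25h lies above it, and the Clu probe sets 1437689_x_at and 1437458_x_at lie at its upper edge.

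Apoe was represented by 1 probe set (1432466_a_at). Its log2 values were 13.55, 13.57, 13.68, 13.40 and 13.62 in AxL 1 to 5 and 13.37, 13.29, 13.22, 13.23 and 13.14 in TPlp+AxL 1 to 5. Every TPlp+AxL array was below every AxL array, although the highest TPlp+AxL value, in TPlp+AxL 1, and the lowest AxL value, in AxL 4, lay close together. The means were 13.56 ± 0.11 (SD, n = 5) and 13.25 ± 0.09 (SD, n = 5), and the change was -0.31 (SE 0.06, 95% interval -0.43 to -0.18), which puts TPlp+AxL at 80.7% of AxL. The median of the 389 probe sets of like level was -0.15. The change of Apoe was -0.16 after repeated quantile normalization and -0.16 after cyclic loess normalization, and it was called in neither, where 0.901% of all probe sets were called after quantile normalization. Apoe was called in 2 of the 10 fits that left out 1 array, those without AxL 4 and without TPlp+AxL 1. Its change was between -0.35 and -0.28 in the 10 fits.

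Pltp had 2 probe sets. The dimmer (1417963_at) had log2 values of 8.55, 8.75, 8.95, 8.80 and 8.82 in AxL 1 to 5, and 8.34, 8.21, 8.16, 8.17 and 8.17 in TPlp+AxL 1 to 5. The groups did not overlap, and 4 of the TPlp+AxL arrays lay within a narrow band from 8.16 to 8.21. The means were 8.77 ± 0.15 (SD, n = 5) and 8.21 ± 0.07 (SD, n = 5), a change of -0.56 (SE 0.07, 95% interval -0.71 to -0.42), or 67.7% of AxL. Normalization hardly moved it, with -0.57 after quantile and -0.55 after cyclic loess normalization, and it was called in all 10 fits that left out 1 array.

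The brighter Pltp probe set (1456424_s_at, an ending that marks probes shared by several transcripts) was more variable. Its log2 values were 10.56, 10.88, 11.42, 10.38 and 10.68 in AxL 1 to 5 and 10.46, 10.38, 10.18, 10.44 and 10.20 in TPlp+AxL 1 to 5. AxL 3 was the highest array and AxL 4 lay within the range of TPlp+AxL, so the groups overlapped. The change was -0.46 (SE 0.16, 95% interval -0.81 to -0.11) and was not called. Probe sets of like level had a median of -0.10 in the deposited values. Without AxL 3 the change was -0.30, and after quantile normalization it was -0.37. After cyclic loess normalization it was also -0.37, with a 95% interval of -0.74 to 0.0077 that includes 0. Both Pltp probe sets were negative, with 95% intervals that overlap, and the dimmer was the one called.

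**Figure D2:**
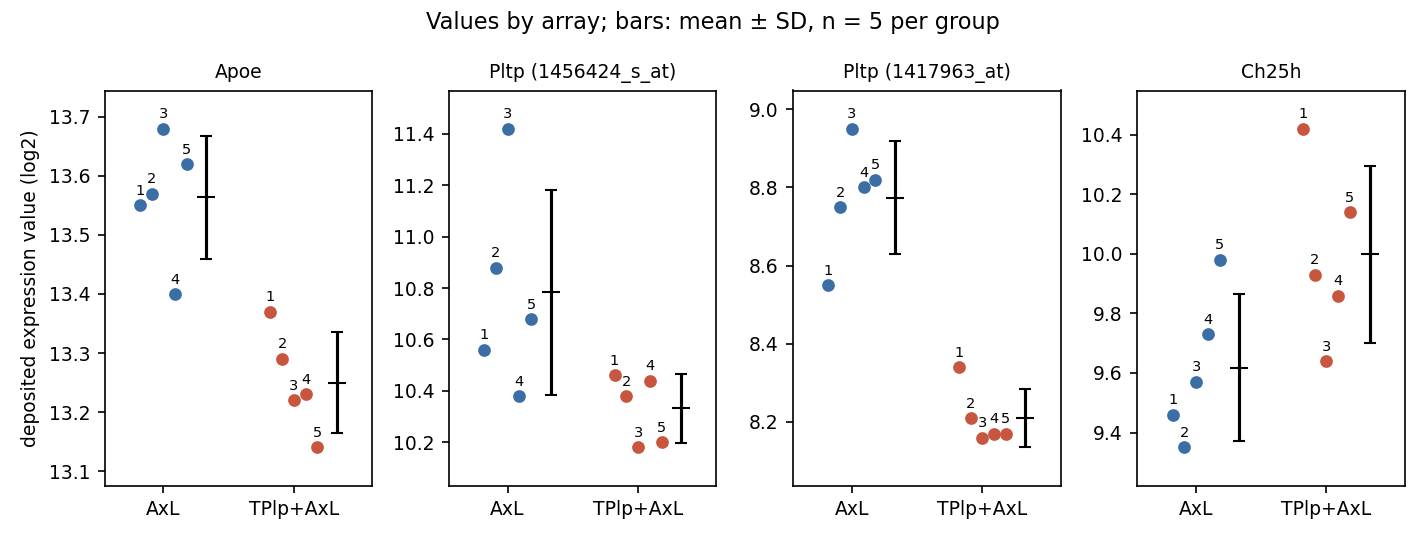
Deposited log2 values (y axis) of Apoe, both Pltp probe sets and Ch25h in each array, numbered by replicate, with the mean and SD of each group of 5. In Apoe and in the Pltp probe set 1417963_at all TPlp+AxL arrays lie below all AxL arrays, while the groups overlap in the other Pltp probe set and in Ch25h.

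The sequences before the start sites of Apoe and Pltp are shown because these are the members called lower. They come from RefSeq, build GRCm38.p6, which had windows for Apoe, Pltp, Abca1, Ch25h, Nr1h3 and Nr1h2, and each is given 5′ to 3′ on the minus strand, up to the base before the annotated start. The first Apoe window of 3 lies at chr7:19699189-19699438 and the Pltp window at chr2:164857709-164857958. Capitals mark matches to the GC box GGGCGG on either strand.
Apoe: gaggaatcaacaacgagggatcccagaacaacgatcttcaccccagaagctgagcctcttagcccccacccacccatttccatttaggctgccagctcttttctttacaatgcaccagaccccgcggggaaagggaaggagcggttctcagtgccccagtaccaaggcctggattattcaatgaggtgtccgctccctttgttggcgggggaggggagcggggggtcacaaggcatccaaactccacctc
Pltp: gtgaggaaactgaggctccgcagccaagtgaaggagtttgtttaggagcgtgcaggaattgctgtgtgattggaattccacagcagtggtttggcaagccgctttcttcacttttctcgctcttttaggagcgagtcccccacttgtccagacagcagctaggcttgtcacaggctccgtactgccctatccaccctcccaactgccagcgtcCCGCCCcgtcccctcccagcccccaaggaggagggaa

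The Pltp stretch holds 1 GC box, on the opposite strand, and the Apoe stretch holds 0. A GC box was present in 32.7% of all 32851 windows when both strands of the 250 bases were searched. The core site of nuclear receptors, AGGTCA, was in 0 of the 9 member windows and in 14.02% of all windows. The tandem form that liver X receptors prefer, 2 such core sites in the same direction with 4 bases between them, was in 0 member windows and 0.0152% of all windows. The gamma-activated site TTCNNNGAA, through which interferon gamma acts, was in 0 member windows and 7.02% of all. The core of the interferon-stimulated response element was in 0 and 2.98%. Of the NF-kappaB forms, GGGNNTTCC was in 1 member window, of Nr1h3, and in 4.98% of all, and the form with 1 base more was in 0 and 4.65%. The TATA box TATAAA was in 1 window each of Abca1, Apoe (the second of its 3) and Ch25h, and in 12.4% of all. These are matches of letters in short windows, and distal elements were not searched.

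Ch25h, the oxysterol-making hydroxylase, had 1 probe set (1449227_at). Its log2 values were 9.46, 9.35, 9.57, 9.73 and 9.98 in AxL 1 to 5 and 10.42, 9.93, 9.64, 9.86 and 10.14 in TPlp+AxL 1 to 5. TPlp+AxL 1 was the highest array and AxL 5 exceeded 3 of the TPlp+AxL arrays, so the groups overlapped. The SDs were 0.25 and 0.29 (n = 5 each), and the change of 0.38 (SE 0.15, 95% interval 0.06 to 0.71), or 1.30-fold, was not called. Probe sets of like level had a median of -0.08 in the deposited values. The change of Ch25h was 0.44 after quantile normalization and between 0.28 and 0.47 with 1 array left out.

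Clusterin, a second major apolipoprotein of the brain and an extracellular chaperone, had 4 probe sets. The brightest (1454849_x_at) had log2 values of 13.63, 13.68, 13.84, 13.74 and 13.73 in AxL 1 to 5 and 13.78, 13.52, 13.44, 13.42 and 13.55 in TPlp+AxL 1 to 5. TPlp+AxL 1 lay within the AxL range while the other 4 TPlp+AxL arrays were below it, as the lowest AxL array had 13.63. Its change was -0.18 (95% interval -0.33 to -0.04) and those of the other probe sets were -0.08, -0.09 and -0.21, none of them called. Probe sets of like level had medians of -0.14 to -0.15. After quantile normalization the 4 changes were -0.02, 0.08, 0.07 and -0.08, so that 2 of them changed sign. The 3 bright probe sets carry the ending for probes that may bind other transcripts. Their deviations from the group means moved together over the 10 arrays (Pearson r from 0.96 to 0.99), and the fourth, 1418626_a_at, followed them with r from 0.74 to 0.78.

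Lipoprotein lipase had 2 probe sets that both overlapped between the groups. The brighter (1415904_at) ran from 12.57 to 12.89 in AxL and from 12.48 to 12.83 in TPlp+AxL, with a change of -0.11 (95% interval -0.29 to 0.06) that was 0.02 after quantile normalization. The dimmer (1431056_a_at) ran from 8.58 to 9.18 and from 8.49 to 9.13, with a change of -0.14 (95% interval -0.46 to 0.18). Neither was called, and both intervals include 0.

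The exporters and the receptor had small differences. The brightest Abca1 probe set (1421840_at) had log2 values of 11.19, 11.00, 11.40, 11.31 and 11.30 in AxL and 11.14, 11.13, 11.13, 11.17 and 11.18 in TPlp+AxL. The TPlp+AxL arrays lay inside the wider AxL range, with SDs of 0.03 and 0.16 (n = 5 each). Its change was -0.09 (95% interval -0.24 to 0.05), 0.01 after quantile normalization, and the other Abca1 probe sets had 0.04 and 0.02 at levels of 7.20 and 6.38, below the array medians of 7.88 to 7.92. The deviations of these dim probe sets did not follow the brightest one (r = -0.04 and -0.25 over 10 arrays). Abcg1 had changes of -0.11 (95% interval -0.22 to -0.00091) at 1423570_at and -0.07 (95% interval -0.17 to 0.03) at 1455221_at, against level medians of -0.10 and -0.02. Nr1h3, the inducible liver X receptor of macrophages, had log2 values near the array median, from 7.65 to 7.83 in AxL and from 7.69 to 7.72 in TPlp+AxL, with a change of -0.04 (95% interval -0.12 to 0.05).

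**Figure D3:**
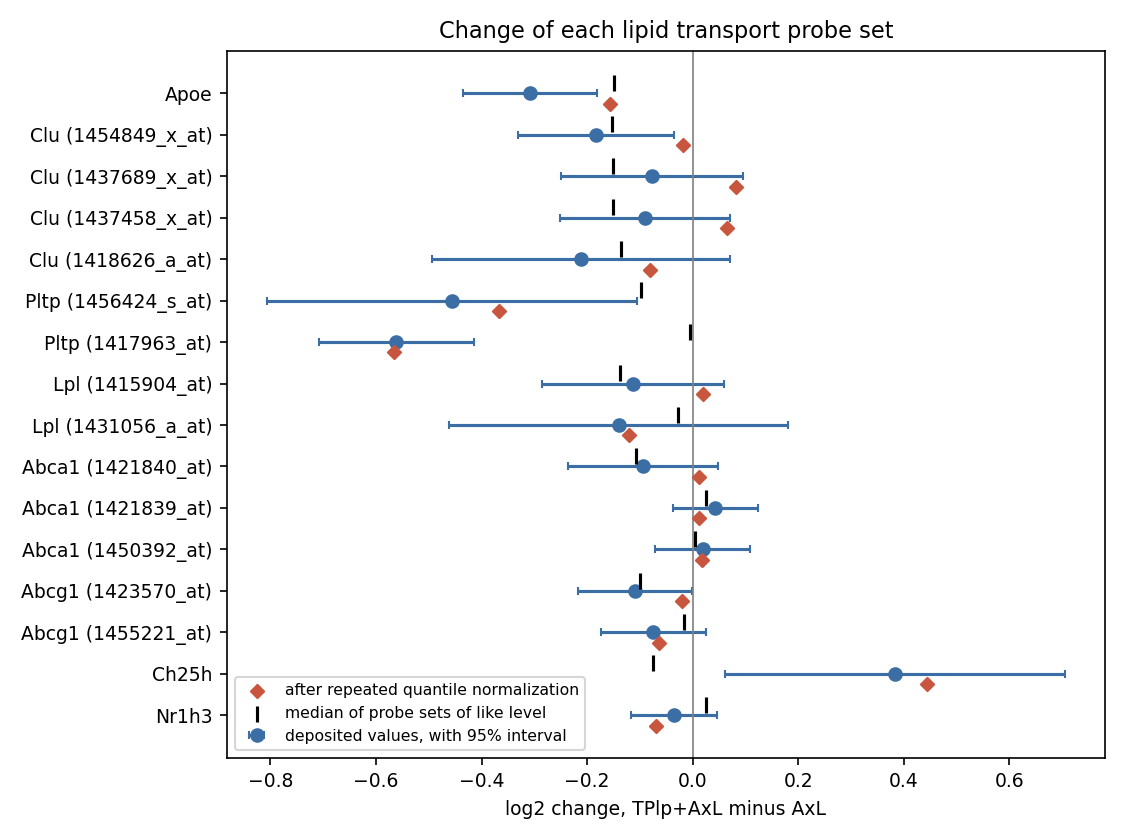
Log2 change (TPlp+AxL minus AxL, x axis) of the 16 member probe sets, with the 95% interval of the limma fit and the change after repeated quantile normalization (diamonds). Ticks are the median change of all probe sets of like level in the deposited values, not after normalization. Both Pltp probe sets stay well to the left of their ticks, Ch25h to the right, and Apoe moves from -0.31 to -0.16 with normalization.

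Of the 16 probe sets, 13 had a negative change in the deposited values and 9 after quantile normalization.

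Choroid plexus, the tissue of the ventricles that makes cerebrospinal fluid, differed between the arrays. The mean of 12 of its markers was 10.14 in AxL 3, 9.25 in AxL 5 and 9.33 in TPlp+AxL 1, and from 7.96 to 8.07 in the other 7 arrays. Kcnj13, a potassium channel of that epithelium, had 12.03, 10.52 and 10.51 in those 3 arrays and from 7.61 to 7.93 in the others. The markers thus fell into separate clusters of arrays, and no correlation over all arrays is given. Between the groups 12 of 12 markers had a negative change, with a median of -0.38 and 0 called. Without the 3 high arrays the median was 0.0041. The part of this tissue in the changes of the members was not tested. AxL 3 was the highest of all arrays for Apoe and for both Pltp probe sets, and TPlp+AxL 1 was the highest of its group for all 3. Without the 3 arrays, Apoe ran from 13.40 to 13.57 in 3 AxL arrays and from 13.14 to 13.29 in 4 TPlp+AxL arrays, with a change of -0.28 (95% interval -0.42 to -0.15). The dimmer Pltp probe set ran from 8.55 to 8.80 and from 8.16 to 8.21, with a change of -0.52 (95% interval -0.66 to -0.37). In both probe sets the groups did not overlap over all 10 arrays, so leaving arrays out could not make them overlap. The brighter Pltp probe set ran from 10.38 to 10.88 and from 10.18 to 10.44, with a change of -0.31 (95% interval -0.58 to -0.04). With these 7 arrays 0 member probe sets were called, and 1 of all probe sets was. With the choroid plexus mean as a covariate Apoe had -0.27 and the dimmer Pltp probe set -0.52, and both were called. The brighter Pltp probe set had -0.35 (95% interval -0.61 to -0.08) with this covariate and was not called.

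**Figure D4:**
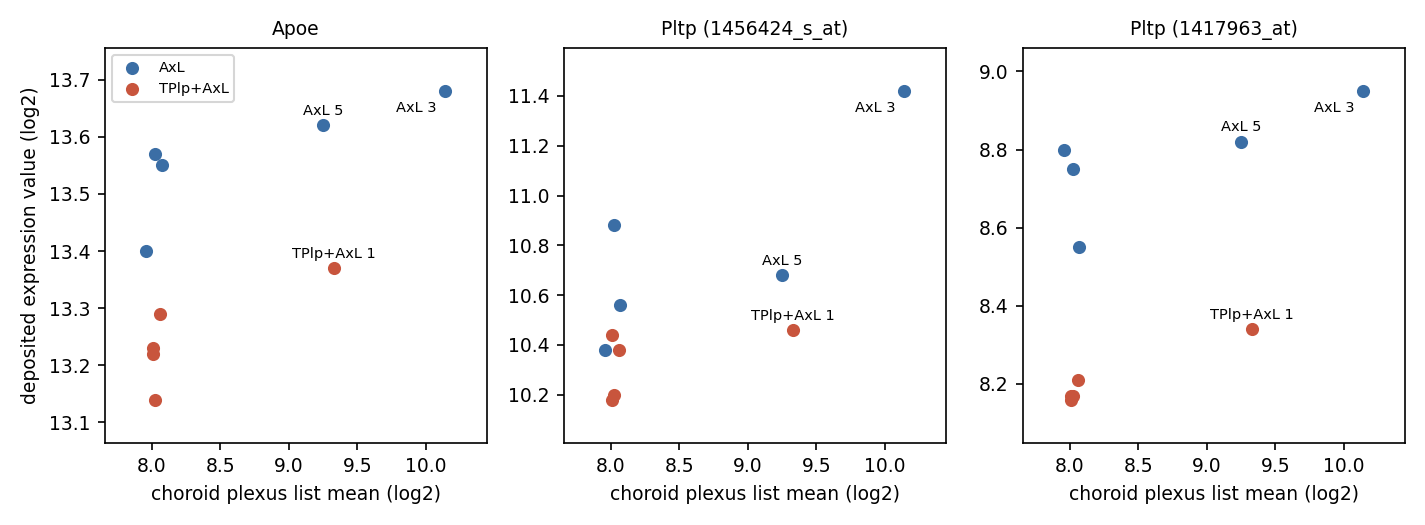
Deposited log2 values (y axis) of Apoe and both Pltp probe sets against the mean log2 value of 12 choroid plexus markers (x axis), 1 point per array. AxL 3, AxL 5 and TPlp+AxL 1 lie apart at 9.25 to 10.14. For Apoe and for 1417963_at the AxL points lie above the TPlp+AxL points over all 10 arrays. For 1456424_s_at the groups overlap, also among the other 7 arrays.

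Marker lists of cell types the tissue could hold are given beside the members, and their part in the results was not tested. In bulk tissue fewer cells of a type and less RNA per cell cannot be told apart. Of 13 endothelial markers 13 had a negative change with a median of -0.17 and 0 called, and their mean ran from 8.53 to 8.83 in AxL and from 8.43 to 8.56 in TPlp+AxL. The largest of these changes was that of Slco1c1, a thyroid hormone transporter of brain vessels, at -0.56 (limma adjusted p = 0.114). After quantile normalization 13 of the 13 endothelial markers were negative, with a median of -0.16. Their median was -0.10 in the deposited values without the 3 arrays high in choroid plexus markers. Of 10 pericyte markers 9 were negative, with a median of -0.11 and 0 called, and 8 were negative after quantile normalization, with a median of -0.12. Of 12 astrocyte markers 10 were negative, with a median of -0.14 and 0 called, but 7 were negative after quantile normalization, with a median of -0.01. Of 13 microglial markers 9 were negative, with a median of -0.09 and 0 called, and 7 were negative after quantile normalization, with a median of -0.02. Monocyte and macrophage markers were positive in 11 of 11, with 5 of 11 called higher (Chil3, Fcgr1, Itgal, Lyz2 and Plac8) and a mean that ran from 8.60 to 8.90 in AxL and from 9.32 to 9.56 in TPlp+AxL. Over all 18193 genes, each by its brightest probe set as in these lists, 1.26% were called in either direction. Of 12 markers of meninges and fibroblasts 11 were negative, with a median of -0.11 and 0 called. After quantile normalization 10 of them were negative, with a median of -0.12. Neuronal markers had 12 of 12 negative and 1 called, Syn1, with a median of -0.21 that was -0.05 after quantile normalization, and oligodendrocyte markers had 11 of 11 negative and 0 called, with medians of -0.21 and -0.12. Of 10 T cell markers 3 were called higher (Cd3d, Cd3g and Il7r) and 1 lower (Thy1, which neurons also express), with a median of 0.12. Markers of hippocampal subfields were present in every array, with a mean of 12 genes from 10.33 to 10.53, and 0 were called.

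Variation between mice of the same group, which the choice of members did not use, was compared with these markers. Deviations from the group means of Apoe, the brightest Clu probe set and both Pltp probe sets were set against those of 5 marker lists (astrocytes, microglia, monocytes and macrophages, endothelium, and meninges and fibroblasts), 20 correlations over 10 arrays. After Benjamini-Hochberg adjustment over the 20, 0 passed 0.05 in a two-sided exact permutation test of the arrays within each group. The meningeal list mean carried the arrays high in choroid plexus markers, with 9.21 in AxL 3, 8.93 in AxL 5 and 8.94 in TPlp+AxL 1 against 8.62 to 8.84 in the other 7, and its gene Igf2, a growth factor that choroid plexus also makes, had 11.93, 10.40 and 10.37 against 9.40 to 9.82. Apoe and the meningeal list had r = 0.75 (exact permutation p = 0.0306, adjusted p = 0.204) and rho = 0.73 (exact permutation p = 0.0229, adjusted p = 0.229). The brighter Pltp probe set and this list had r = 0.73 (exact permutation p = 0.0567, adjusted p = 0.279) and rho = 0.60 (exact permutation p = 0.116, adjusted p = 0.534). The dimmer Pltp probe set had r = 0.67 (exact permutation p = 0.0949, adjusted p = 0.316) and rho = 0.52 (exact permutation p = 0.165, adjusted p = 0.550). Clu had r = 0.68 (exact permutation p = 0.0260, adjusted p = 0.204) and rho = 0.30 (exact permutation p = 0.382, adjusted p = 0.765). Without the 2 arrays farthest from the median of the list, these 4 values of r were 0.45, 0.12, -0.0071 and -0.20, in that order. Each was lower than over all 10 arrays, and that of Apoe stayed the highest. Clu and the astrocyte list had r = 0.75 (exact permutation p = 0.0153, adjusted p = 0.204), rho = 0.85 (exact permutation p = 0.00507, adjusted p = 0.101) and r = 0.68 without the 2 farthest arrays. With microglia Clu had r = 0.53 (exact permutation p = 0.173, adjusted p = 0.433) and rho = 0.72 (exact permutation p = 0.049, adjusted p = 0.325). Without the 2 farthest arrays that r was 0.89. Apoe had r = -0.09 with astrocytes (exact permutation p = 0.819, adjusted p = 0.863). With microglia Apoe had r = -0.06 (exact permutation p = 0.874, adjusted p = 0.874). The dimmer Pltp probe set and the monocyte and macrophage list had r = 0.65 (exact permutation p = 0.0698, adjusted p = 0.279), rho = 0.43 (exact permutation p = 0.249, adjusted p = 0.712) and r = 0.43 without the 2 farthest arrays. With endothelium it had r = 0.20 (exact permutation p = 0.672, adjusted p = 0.863) and rho = 0.38 (exact permutation p = 0.329, adjusted p = 0.765). The 2 Pltp probe sets followed each other with r = 0.62, and Apoe followed the brighter Pltp probe set with r = 0.75 and the dimmer with r = 0.49.

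The genes whose deviations were most like those of these members were sought over the 10 arrays among 18192 other genes, each by its brightest probe set, and the highest r are given as a description. They are the largest of many values over few arrays, and no p was computed for them. For Apoe the most similar gene was Cyp39a1 (r = 0.96), an oxysterol hydroxylase that stood at a mean of 7.01 below the array medians. Next came the ferritin chain Fth1 (r = 0.95, mean 14.40) and the ribosomal protein Rps2 (r = 0.95, mean 13.73). For the brighter Pltp probe set the most similar genes were Pifo (r = 0.97) and Rsph1 (r = 0.96), genes of cilia, and Pter (r = 0.96). For the dimmer Pltp probe set they were Dsg1a (r = 0.95), at a mean of 6.46, the metallothionein Mt2 (r = 0.94) and Tmem98 (r = 0.94). None of these 9 genes was called between the groups.

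Other genes of lipid handling were compared in 6 lists, each gene by its brightest probe set. Of 98 genes 2 were called, both higher, or 2.04%, where 1.26% of all 18193 genes were called, and 29 had an unadjusted p under 0.05 in limma, which 17.9% of all genes had. The median change over the 98 genes was -0.06 and over all genes -0.03. Msr1, a scavenger receptor of macrophages for modified lipoproteins, rose from 8.88 ± 0.11 to 9.29 ± 0.16 (SD, n = 5 each; log2 change 0.41, SE 0.08, limma adjusted p = 0.0332). A further Msr1 probe set rose by 0.64 (limma adjusted p = 0.0158), and the others had 0.21 and 0.13 and did not pass. Angptl4, a secreted inhibitor of lipoprotein lipase, rose from 8.09 ± 0.10 to 8.59 ± 0.24 (SD, n = 5 each; log2 change 0.50, SE 0.10, limma adjusted p = 0.0462), and a second probe set had 0.02. With 1 array left out the limma adjusted p ran from 0.0227 to 0.105 for Msr1, which passed without AxL 2, AxL 4, TPlp+AxL 2 or TPlp+AxL 3, and from 0.0203 to 0.142 for Angptl4, which passed without TPlp+AxL 2 or TPlp+AxL 3. Without the 3 arrays high in choroid plexus markers the limma adjusted p was 0.264 for Msr1 and 0.392 for Angptl4.

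**Figure D5:**
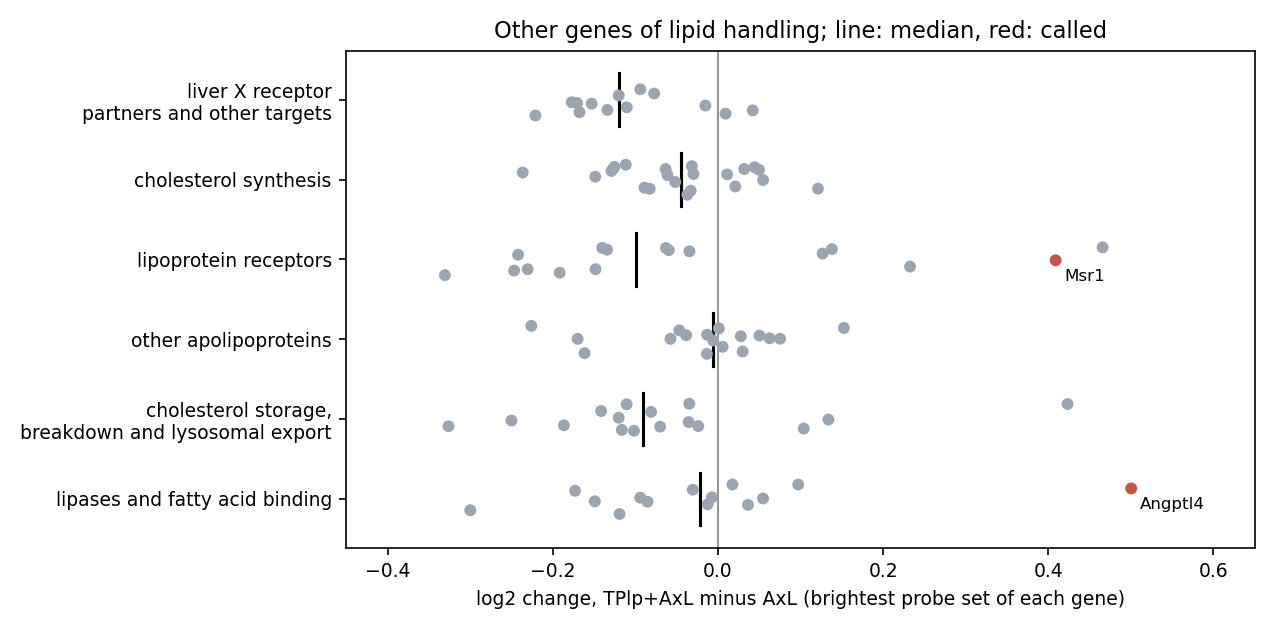
Log2 change (TPlp+AxL minus AxL, x axis) of each measured gene in 6 lists of lipid handling genes, by its brightest probe set. Vertical lines are list medians, from -0.12 to -0.0059, and Msr1 and Angptl4 are the only genes called.

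Receptor partners and further targets of liver X receptors, which act with or downstream of Nr1h3, had 0 of 13 genes called in limma and 7 with an unadjusted p under 0.05, with 11 negative and a median of -0.12 (-0.05 after quantile normalization). The smallest p belonged to Fasn, fatty acid synthase (log2 change -0.22, SE 0.06, limma adjusted p = 0.152), and to Abcg4, an exporter related to Abcg1 (log2 change -0.18, limma adjusted p = 0.183). A second Abcg4 probe set had 0.04 (limma adjusted p = 0.768). Cholesterol synthesis had 0 of 22 called in limma and 3 with an unadjusted p under 0.05. Of its genes 15 were negative, with a median of -0.04, and after quantile normalization 11 were, with a median of -0.0082. Its regulators Srebf2 (-0.24, limma adjusted p = 0.1998) and Scap (-0.13, limma adjusted p = 0.251) had the smallest p. A second probe set had -0.12 for Srebf2 (limma adjusted p = 0.569) and 0.07 for Scap (limma adjusted p = 0.434). In lipoprotein receptors 1 of 16 was called, Msr1, and 11 had an unadjusted p under 0.05 in limma. Those 11 were of both signs, and the 3 receptors with a limma adjusted p under 0.10 were all positive. The 16 changes ran from -0.33 to 0.47, with 11 negative, 5 positive and a median of -0.10. After quantile normalization 10 were negative, with a median of -0.05. The list of other apolipoproteins had 0 of 17 called and 0 with an unadjusted p under 0.05 in limma, with a median of -0.0059. In it Apoc1, another apolipoprotein of macrophages and astrocytes, had -0.23 (SE 0.13, limma adjusted p = 0.434) and Apoh 0.15 (limma adjusted p = 0.375). Cholesterol storage, breakdown and lysosomal export had 0 of 16 called in limma and 4 with an unadjusted p under 0.05. Of these genes 13 were negative, with a median of -0.09, and after quantile normalization 12 were, with a median of -0.04. There Abca2, a lipid transporter of oligodendrocytes, had -0.33 (SE 0.08, limma adjusted p = 0.0868), with 0.0460 after quantile normalization, and the lysosomal lipase Lipa had -0.25 (limma adjusted p = 0.280). Lipases and fatty acid binding proteins had 1 of 14 called, Angptl4, and 4 with an unadjusted p under 0.05 in limma, with a median of -0.02 that was 0.02 after quantile normalization.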

How the data were processed

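Each of the 10 arrays holds deposited log2 expression values of 45101 probe sets, made by the authors with RMA per the submitters' processing notes from biotinylated cRNA. The version is not given in the sources used here, and RMA leaves no background level, so no probe set is said to be undetected. The values had 0 missing entries and 0 pairs of identical arrays.

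The 64 control probe sets were left out. Genes came from the platform annotation, updated through Entrez identifiers with RefSeq (GRCm38.p6), which matched 34741 of 34945 probe sets with 1 symbol. Changes between the groups were fitted in limma 3.58.1 under R 4.3.3 (lmFit, eBayes), with p-values adjusted over all 45037 probe sets at 0.05. The mice were housed in groups per the labels, and which mice shared a cage or batch is not given. The limma p-values set the difference between the groups against the spread between mice of a group, which limma moderates over all probe sets. The number of arrays limits the precision.

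The members and lists were chosen with earlier results of these data known. Every member probe set was named, and from each list its called genes, up to 4 by size of change, or failing any the 2 of lowest p. The 9 most similar genes were the 3 with the highest r for each of 3 probe sets. A planned correlation with choroid plexus markers was not made, because they split the arrays into clusters. GC and TATA boxes and the fit without AxL 3, AxL 5 and TPlp+AxL 1 were added after seeing the data.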

Additional observations from a re-analysis of the deposited data

Results flagged for a closer look

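Of 54 groups of 5 arrays screened, over the member probe sets and the marker list means, 3 had 1 array set apart from the rest by most of the group's range, where chance sets apart about 1 group in 20. The dimmer Pltp probe set was higher in TPlp+AxL 1 (8.34) than in the other TPlp+AxL arrays (8.16 to 8.21). The mean of the choroid plexus markers was also higher in TPlp+AxL 1 (9.33) than in the others of its group (8.01 to 8.06). The mean of the pericyte markers was lower in AxL 2 (8.59) than in the other AxL arrays (8.71 to 8.75).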

How the results depend on the processing

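The change of the dimmer Pltp probe set kept its sign in every alternative run, and it was called in every one except the fit without the 3 arrays high in choroid plexus markers, which called 1 probe set of all. The count of member probe sets called was 1, Pltp alone, with a trended and robust variance, after quantile or cyclic loess normalization and with a replicate block, and 0 without those 3 arrays. It ran from 1 to 2 with 1 array left out. Apoe had -0.16 after quantile and -0.16 after cyclic loess normalization. With 1 array left out Pltp ran from -0.62 to -0.52 (dimmer) and from -0.56 to -0.30 (brighter).

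All probe sets called numbered 376, 753 with array weights, 241 with a replicate block, 1 without the 3 arrays, and 185 to 460 with 1 array left out. Lipoprotein receptors called numbered 1, 2 with a trended variance or with gene means, 5 with array weights, 0 with the block or without the 3 arrays, 3 at an adjusted p under 0.10, and 0 to 2 with 1 array left out. Lipases called numbered 1, and 0 with array weights, the block, the choroid plexus covariate or without the 3 arrays, and 0 to 1 with 1 array left out. Abca2 was the 1 storage gene called after quantile normalization, with the block and at 0.10. Cholesterol synthesis ran from 0 to 1 (Scap, without AxL 2). The causes were not tested. Same-numbered arrays were not regularly alike: their deviations correlated from -0.22 to 0.36, and 1 of 5 AxL arrays was most like its own number. This cannot exclude a shared cage or batch, since other differences between arrays, as in choroid plexus markers, enter the same deviations.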
